A study of Rattus norvegicus with 399 samples.

Results

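The ovaries of rats given 1,4-dichlorobenzene (1,4-DCB) at 800 ppm were compared with ovaries of the rats given 0 ppm, which left 15 libraries, 5 exposed and 10 control, of the 399 libraries of the series. They were taken by their labels (compound, tissue and concentration), and none of the ovary libraries was marked by the submitters as unfit for use. 1,4-DCB is a chlorinated benzene sold as a moth repellent and deodorant block. All rats were female Sprague-Dawley animals aged 9 weeks, the tissues were collected on study day 5, and the labels separate the groups by the concentration given (0, 1, 10, 50, 150, 400 or 800 ppm, with 5 rats at each concentration above 0). The route of exposure, the time of day of collection and the stage of the estrous cycle are not given in the labels used here. Each library held both ovaries of 1 rat, so the 5 exposed libraries are 5 animals (rats F601 to F605, in which order the exposed values are listed throughout) and the controls are 10 animals (rats F1 to F10). Gene expression was measured with the TempO-Seq Rat S1500+ panel, which counts ligated pairs of detector oligos on 2654 probes for 2603 gene symbols.

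The adult rat ovary turns over its follicles in a short estrous cycle. The surge of luteinizing hormone (LH) briefly induces a set of immediate early, protease and prostaglandin genes in granulosa cells, the follicle ruptures, and its wall becomes a corpus luteum that takes up and makes cholesterol and converts it to progesterone. Levels of follicular, periovulatory and luteal transcripts in a whole ovary therefore differ from rat to rat with the day of the cycle. In a bulk sample, more cells of a type and more RNA per cell cannot be told apart.

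The 40 ovaries of the 1,4-DCB rats gave 1.2 to 41.76 M counts per library (M for mega), with a median of 29.98 M. The exposed libraries held 26.49 to 41.45 M and the controls 1.2 to 38.44 M. Control rat F6 had the shallowest library, and leaving it out changed the share of probes called at 800 ppm from 8.47% to 8.23%. No 2 ovary libraries were identical, and the closest pair correlated at 0.9911 across probes. The tissue label was borne out by its defining genes: the side-chain cleavage enzyme gene Cyp11a1 read 5583 to 15438 CPM (counts scaled to library size) over the 15 ovaries, and the oocyte factor Gdf9 was above 0 in each of them (1.74 to 6.64 CPM). Of the markers of the adjoining oviduct and uterus, edgeR, DESeq2 and limma voom called 0 of 3, with 1 at an unadjusted p below 0.05, and their summed level covered the same wide range in controls (69.1 to 1163 CPM) and exposed rats (43.8 to 1120 CPM).

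At 800 ppm, 8.47% of 2386 tested probes passed an adjusted p of 0.05 in edgeR's quasi-likelihood test, 4.23% higher and 4.23% lower. Of these, 59 differed by more than 2-fold (2.47% of those tested), 21 upward and 38 downward. Among genes that averaged at least 20 CPM in either group, those that rose most were Hsd17b7, Vnn1, A2m, Hp, Dbp and Lhcgr, and those that fell most were Fosl1, Egr2, Plaur, Tnfrsf12a and Rgs2. The median log2 change was 0.63 over the probes that rose and -0.72 over those that fell, against 0.0 over all tested probes. The share called depended on the exposed rats: it was 3.7% without rat F602, 4.19% without rat F603, 5.28% without rat F604, 5.9% without rat F605 and 11.1% without rat F601. It stayed between 6.51% and 9.24% when any 1 control was left out. Adjusted p-values below are from the same test over all 2386 probes, and fold changes are on the log2 scale with their standard error. Counts of called list members below stand beside these shares, 8.47% in either direction and 4.23% in each.

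**Figure D1:**
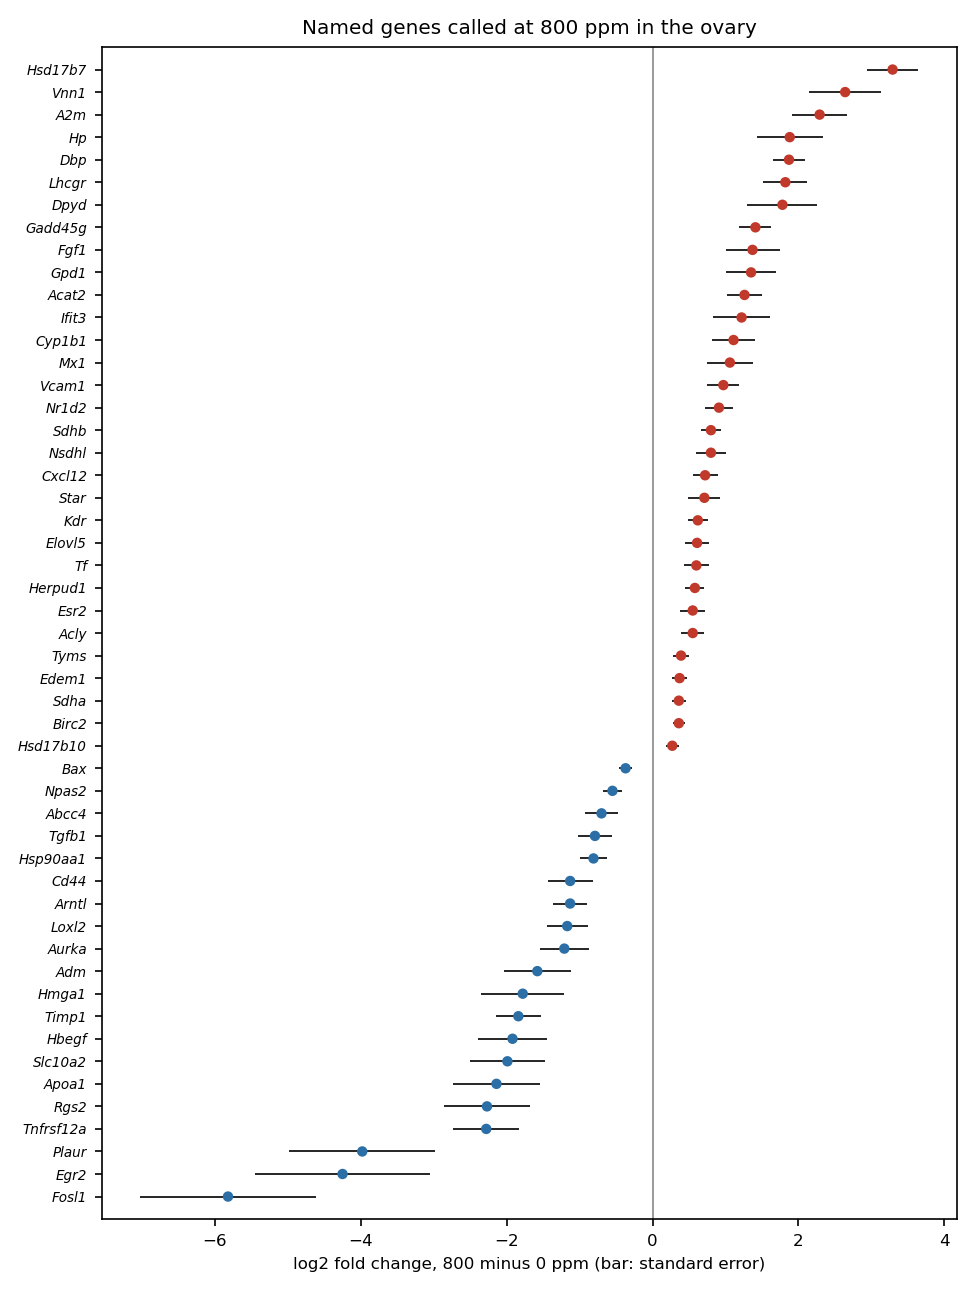
Log2 fold change at 800 ppm against 0 ppm (x axis) with its standard error for the named genes that passed the test and are reported here, ordered by size. Rises reach 3.29 for Hsd17b7 and falls reach -5.82 for Fosl1, whose error, like that of Egr2, is wide.

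Several transcripts of the corpus luteum rose. Of 7 tested luteal markers, 4 rose (A2m, Hsd17b7, Lhcgr and Star), none fell, and their median change was 0.71. Over all tested probes, 4.23% rose. The markers summed to 20428 to 26821 CPM in the exposed ovaries and 9257 to 17192 CPM in the controls, so the ranges did not overlap. Cyp11a1, which was not called, averaged 12329 CPM of that sum in the exposed ovaries and 8838 CPM in the controls. Hsd17b7, Lhcgr and A2m were already known to differ when the list was written. The count and the summed ranges are therefore descriptions and not independent evidence of a direction.

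Hsd17b7 encodes a reductase that converts estrone to estradiol in luteal cells and also acts in cholesterol synthesis. It read 581, 1557, 2682, 4193 and 1776 CPM in the exposed ovaries, against a lowest value of 96.1, a median of 236 and a highest of 331 CPM in the controls. Every exposed ovary lay above every control and above the 25 ovaries of the lower concentrations, which reached 439 CPM, and rat F601 was the lowest of the 5. The means were 2158 ± 1361 CPM (SD, n = 5) and 221 ± 72.2 CPM (SD, n = 10), a log2 change of 3.29 ± 0.35 with an adjusted p of 1.31e-07, the smallest of all tested probes.

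Lhcgr, the receptor for LH, read 40.5, 179, 110, 89.2 and 93.5 CPM in the exposed ovaries and 18.9 to 43.9 CPM (median 28.2) in the controls. Rat F601 lay within the control range and the other 4 rats above it. The log2 change was 1.82 ± 0.30 (adjusted p = 0.000168), and the control and exposed means were 28.8 ± 8.45 CPM (SD, n = 10) and 102.4 ± 50.0 CPM (SD, n = 5).

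A2m, alpha-2-macroglobulin, a protease inhibitor that is abundant in rat corpora lutea and is also an acute phase protein, read 711, 2765, 2235, 2582 and 1165 CPM. The controls ran from 141.7 to 746 CPM with a median of 312 CPM. Again rat F601 fell within the control range and the other 4 rats above it, and the log2 change was 2.29 ± 0.38 (adjusted p = 0.00018).

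Star carries cholesterol to the inner mitochondrial membrane, the first step of steroid synthesis. It read 6408, 4016, 3028, 2565 and 3211 CPM against 1676 to 3140 CPM (median 2226) in the controls. The groups overlapped, and here rat F601 was the highest rather than the lowest. The log2 change of 0.71 ± 0.22 passed narrowly (adjusted p = 0.0418) and lost its call in 15 of 26 alternative analyses. The remaining tested luteal markers did not pass: Cyp11a1 had a log2 change of 0.48 ± 0.21 (adjusted p = 0.157), the lipoprotein receptor Scarb1 one of 0.36 ± 0.25 (0.429) and the prolactin receptor Prlr one of -0.04 ± 0.15 (0.925). With the cycle scores described below as covariates, Prlr was called as a fall (-0.59, adjusted p = 0.00562). Prlr is itself a member of the luteal score, so that value does not show a lower Prlr level in the exposed ovaries. Lack of a call does not show that a gene stayed level. Hsd3b1, Akr1c18 and Fshr were not analysed here.

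**Figure D2:**
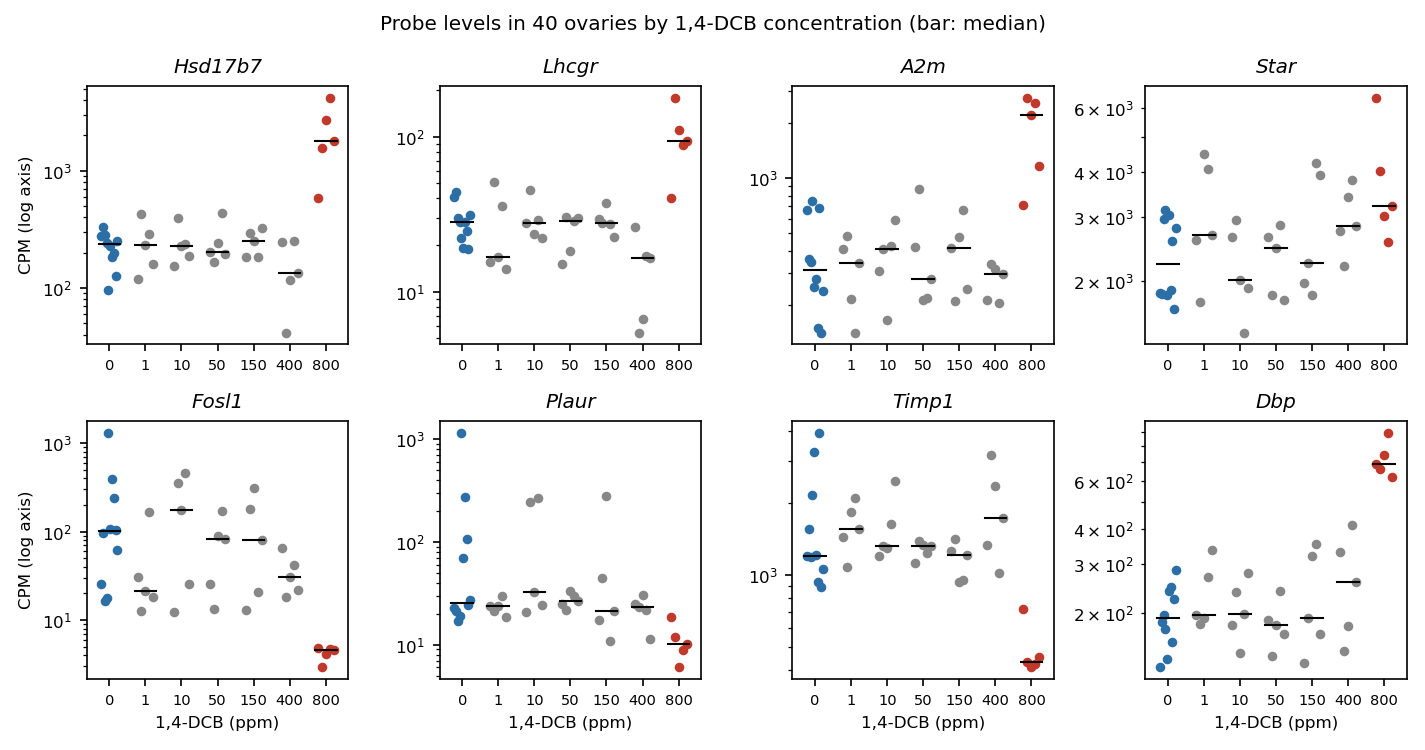
CPM on a log axis of 8 genes in each of the 40 ovaries by 1,4-DCB concentration (blue 0 ppm, grey 1 to 400 ppm, red 800 ppm, black bar the median of the group). Hsd17b7 and Dbp at 800 ppm lie above all other ovaries, Fosl1 and Timp1 below all of them, and Star overlaps.

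Among 14 tested steroidogenesis genes, 4 rose (Cyp1b1, Hsd17b10, Hsd17b7 and Star) and none fell, beside 4.23% of all tested probes in each direction. Cyp1b1, a cytochrome P450 that hydroxylates estradiol, read 141.1, 156.4, 199, 226 and 261 CPM against 45.6 to 161 CPM (median 79.5) in the controls, with 2 exposed rats inside the control range. Its log2 change was 1.11 ± 0.30 (adjusted p = 0.0151), and it missed the threshold without rat F605 (0.99, adjusted p = 0.0582). Hsd17b10, a mitochondrial dehydrogenase, changed by only 0.27 ± 0.086 (adjusted p = 0.0441), a call that was lost in 15 of 26 alternatives.

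Aromatase and the androgen-producing lyase of theca cells did not pass in edgeR. Cyp19a1, aromatase, read 183, 312, 274, 272 and 355 CPM against 54.1 to 284 CPM, a log2 change of 1.19 ± 0.42 (adjusted p = 0.0745). It was called as a rise in 5 alternatives, by DESeq2 (adjusted p = 0.0401), by limma voom (0.0486), with only the exposed ovaries and controls (0.0321), at a mean of 20 CPM (0.0492) and without control F2 (1.40, 0.0293). Cyp17a1, the lyase, read 44.1, 25.4, 20.3, 44.5 and 90.5 CPM against 4.88 to 209 CPM, a log2 change of -1.26 ± 0.80 (adjusted p = 0.381). For both genes the exposed values overlapped the controls, and control rats F4 and F8 had Cyp17a1 at 4.88 and 5.81 CPM while the other 8 controls read at least 104.3 CPM.

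Of 13 tested receptors and signals of the ovarian hormone axis, Lhcgr and Esr2 rose and none fell. Esr2, the estrogen receptor of granulosa cells, read 36.2, 45.3, 60, 51.4 and 64.6 CPM against 24.2 to 52.1 CPM in the controls. The groups overlapped in 3 of the 5 exposed rats, the log2 change was 0.55 ± 0.17 (adjusted p = 0.0418), and the call was lost in 14 of 26 alternatives. The inhibin subunits, which granulosa cells secrete, did not pass: Inha had a log2 change of 0.55 ± 0.23 (adjusted p = 0.134) and Inhba one of 0.96 ± 0.38 (adjusted p = 0.114). Set against the 10 control ovaries of the 1,2-DCB experiment in place of their own controls, both subunits came to a change of about 0 (-0.02 and -0.03). Of 9 tested granulosa cell markers edgeR called 2: Esr2 rose and Slc18a2 fell. Slc18a2 went from a mean of 0.384 CPM to 0 in every exposed ovary, so it has no usable fold change. DESeq2 called 3 of the 9 and limma voom 2, and the median change was 0.55. In edgeR 7 had an unadjusted p below 0.05, against 22.2% of all tested probes. Their summed level overlapped, at 2234 to 3901 CPM in the exposed ovaries and 652 to 2598 CPM in the controls. Of 5 theca cell markers edgeR called 0, with 1 at an unadjusted p below 0.05 and 1 called by DESeq2 and by limma voom, and of 2 oocyte markers none passed by any of the 3 tools.

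Some genes that LH induces around ovulation fell. Of 24 tested probes on that list, 4 fell (Timp1, Rgs2, Cd44 and Adamts4), none rose, and the median change was -0.73. Over all tested probes, 4.23% fell. Cd44 lost its call in 5 of 26 alternatives. Among the largest falls outside the list were those of Fosl1, Egr2, Plaur and Hbegf. Fosl1 and Egr2 encode transcription factors, Plaur the urokinase receptor, and Hbegf a ligand of the EGF receptor. In Fosl1, Plaur and Rgs2, and in Hmga1, control rats F5, F7 and F8 had the 3 highest levels, while in Egr2 and Hbegf rats F5 and F7 stood highest.

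Fosl1 read 4.78, 2.92, 4.15, 4.66 and 4.63 CPM in the exposed ovaries, while the controls ran from 16.6 to 1320 CPM with a median of 100.6 CPM. The groups did not overlap, and no ovary of the 25 at lower concentrations fell below 12.5 CPM. The 3 highest controls were rats F5, F7 and F8 (1320, 398 and 242 CPM). The log2 change was -5.82 ± 1.2 (adjusted p = 0.00226). It rests on group means that these controls raise, and with limma voom it was -4.50 (adjusted p = 0.056).

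Plaur read 18.4, 11.8, 6.01, 8.96 and 10.2 CPM in the exposed ovaries and 17 to 1166 CPM (median 25.7) in the controls. Rat F601 overlapped the lowest controls and the other 4 rats lay below them. The log2 change was -3.98 ± 1.0 (adjusted p = 0.0137), and with rats F5, F7 and F8 left out together it was -1.30 (adjusted p = 0.298). Egr2 read 1.70 to 2.60 CPM against 1.61 to 199 CPM, so every exposed rat lay within the control range. Its change of -4.25 ± 1.2 (adjusted p = 0.0206) became -1.60 (adjusted p = 0.329) without those 3 controls. The call was lost in 8 of 25 alternatives, among them without rat F602, F603 or F604 (adjusted p = 0.0561 to 0.0673).

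Rgs2, a brake on G protein signals, read 11.1, 10.9, 11, 12.4 and 13.7 CPM against 14.4 to 242 CPM (median 24.9). The groups did not overlap, but the lowest controls lay just above the exposed rats. The change of -2.27 ± 0.59 (adjusted p = 0.0135) was -0.78 (adjusted p = 0.268) without rats F5, F7 and F8. Hmga1, a chromatin protein gene, passed only narrowly (-1.78 ± 0.57, adjusted p = 0.0449). It came to -0.93 (adjusted p = 0.171) without control F5, whose level was 644 CPM, and its call was also lost when control F7 or F8, or any 1 of the 5 exposed rats, was left out (adjusted p = 0.0509 to 0.123).

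Timp1, an inhibitor of matrix proteases that peaks at ovulation, read 716, 430, 409, 422 and 454 CPM, while the controls ran from 888 to 3933 CPM with a median of 1201 CPM. Every exposed ovary was below every other ovary, with rat F601 nearest to them. The log2 change was -1.84 ± 0.31 (adjusted p = 0.00018), and its call held in all 26 alternatives, with values from -2.01 to -1.19. The alternatives include the fit with the cycle scores described below, of which Timp1 is a member. Hbegf read 12, 6.29, 5.42, 5.04 and 6.41 CPM against 13.3 to 74.4 CPM, again without overlap and with rat F601 nearest (-1.92 ± 0.47, adjusted p = 0.00831). Tnfrsf12a, the receptor of the cytokine TWEAK, read 10.9, 1.73, 2.20, 2.22 and 4.20 CPM against 10.5 to 40.2 CPM, and only rat F601 lay within the control range (-2.28 ± 0.45, adjusted p = 0.00124).

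Other periovulatory genes varied widely among the controls and did not pass in edgeR, while DESeq2 called 6 on this list and limma voom 3. Ptgs2, the inducible prostaglandin synthase of the ovulating follicle, read 2.98 to 10.2 CPM in the exposed ovaries and from 3.07 CPM upward, with a median of 9.15 CPM, in the controls (-2.25 ± 0.92, adjusted p = 0.127), and DESeq2 called it as a fall (adjusted p = 0.0406). Pgr, the progesterone receptor that the LH surge induces, read 4.05 to 68.6 CPM against 1.90 to 274 CPM (-0.81 ± 0.99, adjusted p = 0.722). Leaving out control F9 alone, which held that highest value, turned the Pgr difference to 0.26.

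The cycle stage of the rats was not recorded in the labels, so it was described by 2 scores per ovary, the mean standardized log2 level of the luteal markers and of the periovulatory list. The luteal score ran from 0.79 to 1.74 in the exposed ovaries, from -1.10 to 0.40 in the controls and from -2.10 to 0.72 in the 25 ovaries at 1 to 400 ppm. All 5 exposed ovaries therefore lay above all 35 others. Because Hsd17b7, Lhcgr and A2m in this score were already known to differ, that separation is a description and not independent evidence. The periovulatory score ran from -0.61 to 0.01 in the exposed ovaries, and 3 of the 5 lay just below the range of the 1 to 400 ppm ovaries (-0.50 to 0.79), while controls F5, F7 and F8 stood at 1.88, 1.15 and 0.75. The scores contain genes that were called, among them Hsd17b7, A2m, Lhcgr, Star and Timp1. They also contain genes that were not, among them Prlr and Cyp11a1. A fit with the scores as covariates therefore cannot test their own members.

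**Figure D3:**
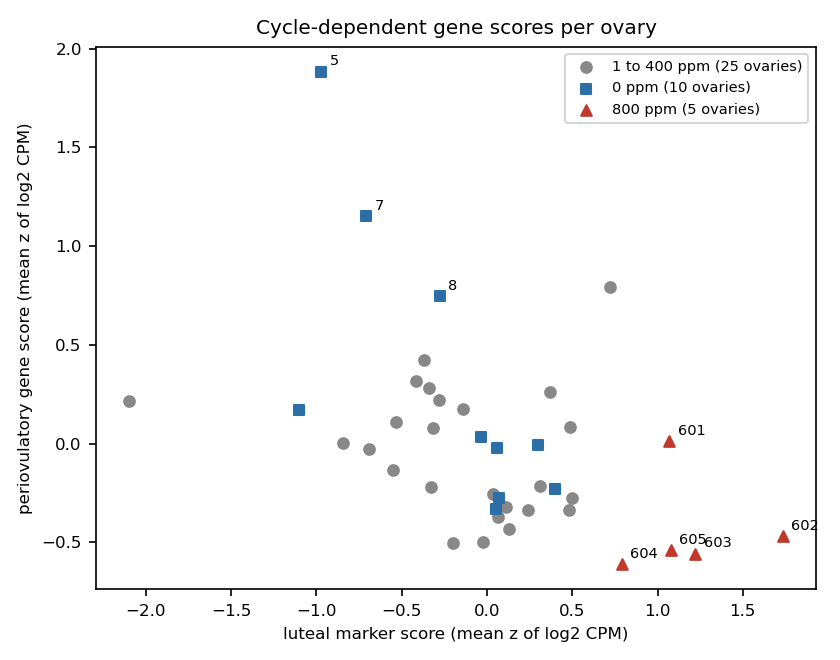
Luteal marker score (x axis) against periovulatory gene score (y axis), each the mean z score of log2 CPM over the list, for 40 ovaries by concentration, with the exposed rats and controls F5, F7 and F8 numbered. The exposed ovaries sit to the right of the other 35, and the 3 numbered controls at the top left. The luteal score includes genes already known to differ.

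With both scores as covariates, 85 probes were called, 34 higher and 51 lower, of which 57 were also called without the covariates. Of the 52 named genes that passed, 20 kept their call in that fit, among them Vnn1, Dbp, Gadd45g, Fosl1 and Arntl. Acat2 and Sdhb were among those that did not, and Hmga1 turned to a small rise (0.32, not called). Of the members of the scores, Hsd17b7 (2.31), A2m and Timp1 kept the call. Lhcgr (0.87, adjusted p = 0.163) and Star lost it, and Rgs2 turned to 0.18 (not called). For such members that fit is not a test. With controls F5, F7 and F8 left out instead, 84 probes were called, 46 higher and 38 lower, and 79 of them were also called with all controls. Whether the exposed rats were at another stage of the cycle, and the part of stage in these results, was not tested.

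The rise of Hsd17b7 stood beside smaller rises of other lipid synthesis genes. Of 15 tested genes of cholesterol synthesis and uptake, 3 rose (Acat2, Hsd17b7 and Nsdhl), none fell, and the median change was 0.54. Over all tested probes, 4.23% rose. Acat2, which makes acetoacetyl-CoA at the head of the pathway, read 87, 266, 190, 152.5 and 149.8 CPM against 34.9 to 136.6 CPM (median 66.9). Only rat F601 overlapped the controls, and the log2 change was 1.26 ± 0.24 (adjusted p = 0.000852). Nsdhl, a late enzyme of the pathway, changed by 0.80 ± 0.21 (adjusted p = 0.0148). Its call was lost in 4 of 26 alternatives, among them without rat F602 (0.60, adjusted p = 0.119) and against the 1,2-DCB controls (0.46, adjusted p = 0.267). At 50 ppm, where no probe was called, Nsdhl changed by 0.77 ± 0.21, Acat2 by 0.79 ± 0.24 and Hsd17b7 by 0.17 ± 0.36.

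Of 12 fatty acid synthesis genes, Elovl5, an elongase of polyunsaturated fatty acids (0.61 ± 0.16, adjusted p = 0.0144), and Acly, which supplies cytosolic acetyl-CoA (0.55 ± 0.16, adjusted p = 0.0233), rose. Elovl5 lost its call in 3 of 26 alternatives and Acly in 5, both of them without rat F602. Gpd1, the cytosolic glycerol phosphate dehydrogenase, read 77.2, 143.2, 112.6, 269 and 61.6 CPM against 23.2 to 108.1 CPM (1.35 ± 0.34, adjusted p = 0.0112), and missed the threshold without rat F604 (0.92, adjusted p = 0.109). Slc10a2, the sodium-dependent bile acid carrier, fell in 4 of the 5 rats: it read 19.6, 21.6, 23.8 and 79.6 CPM in rats F602 to F605 but 320 CPM in rat F601, within the control range of 226 to 603.7 CPM. Its log2 change was -1.99 ± 0.51 (adjusted p = 0.0123), and it missed the threshold without rat F602 (-1.74, adjusted p = 0.0501). Apoa1, the main apolipoprotein of HDL, read 676, 454, 428, 434 and 393 CPM, below every control (741 to 6078 CPM, median 1808), with a change of -2.14 ± 0.60 (adjusted p = 0.0195). Its call was lost without rat F602, F603, F604 or F605, at adjusted p = 0.0535 to 0.0659, while the change stayed between -2.12 and -2.08.

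Vnn1 encodes a pantetheinase and is a known target of the fatty acid receptor PPAR alpha. Of 25 tested genes of PPAR targets and fatty acid oxidation, edgeR called only Vnn1, beside 8.47% of all tested probes. DESeq2 and limma voom called 2 each, and the median change was 0.22. In edgeR 8 had an unadjusted p below 0.05, against 22.2% of all tested probes. Vnn1 read 425, 4178, 4441, 4166 and 2630 CPM against 184 to 1428 CPM (median 314) in the controls. Rat F601 was within the control range and the other 4 rats above all controls, and the change was 2.64 ± 0.49 (adjusted p = 0.000682). The joint fit of 5 tissues gave Vnn1 a log2 change of 1.65 in liver, 1.22 in kidney, 0.22 in lung and 0.12 in heart.

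**Figure D4:**
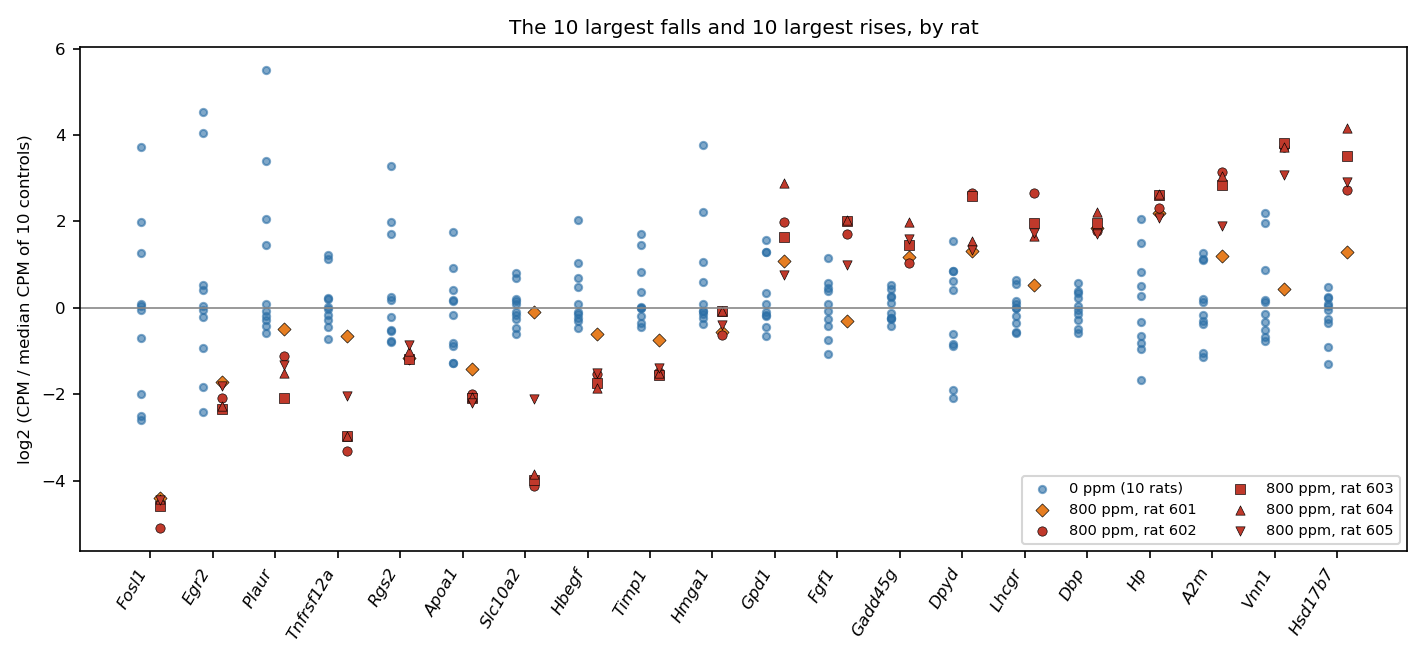
Log2 ratio of CPM to the median of the 10 controls (y axis) for the 10 genes with the largest falls and the 10 with the largest rises, each control a blue point and each 800 ppm rat a marker. Rat F601 (orange diamond) lies with the controls for Slc10a2, Tnfrsf12a, Fgf1, Lhcgr, A2m and Vnn1, and with the other exposed rats for Fosl1, Dbp and Hp.

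Subunit genes of mitochondrial succinate dehydrogenase rose. Sdhb, the iron-sulfur subunit of succinate dehydrogenase, read 11877, 18403, 16366, 13771 and 14152 CPM against 6526 to 10768 CPM (median 8735). Every exposed ovary was above all 35 others, and the change was 0.80 ± 0.14 (adjusted p = 0.000307). Its flavoprotein partner Sdha changed by 0.36 ± 0.093 (adjusted p = 0.0129). They were the only 2 of 16 tested genes of respiration and carriers to pass, and the median of that list was 0.10.

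In all, 14 called probes separated the 5 exposed ovaries from all 35 others, 12 of them higher and 2 lower (0.503% and 0.0838% of those tested). Apart from Hsd17b7, Hp, Dbp, Nr1d2, Sdhb, Fosl1 and Timp1, these were Nrp1, Echs1, Prkag1, Itpr2, F2r, Sdpr and Bcan, which are named here because their values were seen. Nrp1, a co-receptor for VEGF, read 52.3, 65.5, 58.1, 59.9 and 61.2 CPM against 29.5 to 42.2 CPM (0.73 ± 0.11, adjusted p = 3.48e-05). Echs1, the hydratase of mitochondrial fatty acid oxidation, read 1716, 2439, 2116, 1697 and 1771 CPM against 1024 to 1539 CPM. Among endothelial markers, 1 of 5 rose: Kdr, the VEGF receptor, read 150.9, 143.2, 108.6, 97.7 and 113.7 CPM against 61.2 to 88.6 CPM (0.62 ± 0.14, adjusted p = 0.00331). The median change of the 5 endothelial markers was -0.29, and only Kdr had an unadjusted p below 0.05 in edgeR. The summed endothelial markers overlapped, at 239 to 362 CPM in exposed ovaries and 239 to 333 CPM in controls.

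Circadian clock genes moved in opposite directions. The clock is a feedback loop in which Arntl and its partners Clock and Npas2 drive Dbp and the Nr1d genes, and the Nr1d proteins repress Arntl. Of 8 tested clock genes, Dbp and Nr1d2 rose and Arntl and Npas2 fell, beside 4.23% of all tested probes in each direction. Dbp read 689, 658, 742, 894 and 619 CPM against 127.3 to 285 CPM (median 191), so that the exposed rats lay closely together and above all 35 other ovaries (1.87 ± 0.22, adjusted p = 2.95e-07). Nr1d2, a repressor, read at least 110.8 CPM in each exposed ovary and at most 89.3 CPM in the controls (0.91 ± 0.19, adjusted p = 0.00224).

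Arntl read 101.1, 60.2, 52, 56.9 and 63.5 CPM against 104.8 to 176 CPM (median 146.7), with rat F601 just below the lowest control (-1.13 ± 0.23, adjusted p = 0.00159). Npas2 read 38.1, 48.5, 40.9, 36.6 and 33.4 CPM against 48.8 to 64.8 CPM (-0.55 ± 0.13, adjusted p = 0.0067). For these 4 genes no exposed value lay within the control range. The other 4 clock genes, Nfil3, Bhlhe40, Nr1d1 and Cry1, did not pass.

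The same 4 genes were called in the same direction in the heart, kidney, liver and lung of the 1,4-DCB rats. Dbp changed by 2.72 ± 0.18 in heart, 3.05 ± 0.18 in kidney, 1.17 ± 0.19 in liver and 4.09 ± 0.21 in lung. Arntl changed by -3.14 ± 0.21, -3.46 ± 0.22, -0.76 ± 0.18 and -2.89 ± 0.21 in that order. The ovary's rise of Dbp was smaller than the mean of the other 4 tissues by 0.87 ± 0.22 (adjusted p = 0.00223), and its fall of Arntl was smaller by 1.46 ± 0.19 (adjusted p = 1.59e-09). Time of death and time of exposure were not in the labels, and their part in these values was not tested.

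**Figure D5:**
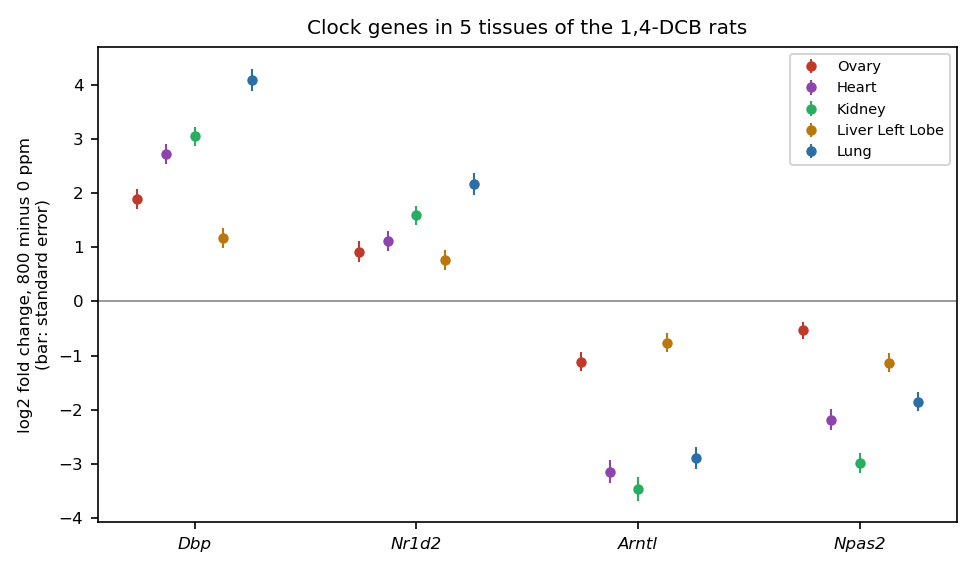
Log2 fold change at 800 ppm against 0 ppm (y axis, with standard error) of 4 clock genes in ovary, heart, kidney, liver and lung of the 1,4-DCB rats. Dbp and Nr1d2 are above 0 and Arntl and Npas2 below 0 in each tissue, with the liver and ovary nearest to 0 for Dbp and Arntl.

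Because the clock genes moved together, the 300 bases around their RefSeq start sites (GRCr8, 250 before to 50 after) were searched on both strands for the E-box CACGTG, which 6.42% of 33469 rat promoters hold, and for the core TAGGTCA of the element bound by Nr1d and ROR proteins, which 2.63% hold. Arntl alone of the 4 held a match, to the TAGGTCA core, 16 bases before the start. The window of Dbp, which moved the other way, held neither. Both are shown 5′ to 3′ with the match in capitals.
Arntl (chr1:176766078-176766377, plus strand): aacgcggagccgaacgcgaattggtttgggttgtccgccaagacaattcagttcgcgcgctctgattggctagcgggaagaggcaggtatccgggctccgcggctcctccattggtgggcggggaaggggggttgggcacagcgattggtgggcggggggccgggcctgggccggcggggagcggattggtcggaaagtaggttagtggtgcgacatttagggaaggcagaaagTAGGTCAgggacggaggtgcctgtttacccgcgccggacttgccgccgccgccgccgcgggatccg
Dbp (chr1:105312006-105312305, plus strand): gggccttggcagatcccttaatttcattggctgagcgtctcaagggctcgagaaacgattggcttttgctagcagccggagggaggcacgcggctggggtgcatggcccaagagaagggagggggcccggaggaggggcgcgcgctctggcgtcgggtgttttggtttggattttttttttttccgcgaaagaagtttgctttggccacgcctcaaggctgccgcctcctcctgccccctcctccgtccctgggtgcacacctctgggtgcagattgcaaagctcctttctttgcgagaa

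RefSeq held a window for 48 of the 62 named genes, and these were searched for an NR5A site (CAAGGTCA), a cyclic AMP element (TGACGTCA), a sterol element (TCACNCCAC) and an antioxidant element (TGACNNNGC), which 1.52%, 1.83%, 1.12% and 12.1% of promoters hold. No window of a named gene held the first or the third, 2 held the second (Elovl5 and Sdhb), and 11 held the last. These 11 were of genes that rose (Hsd17b7, Gadd45g, Nsdhl, Ifit3 and Kdr) and of genes that fell (Fosl1, Egr2, Rgs2, Timp1, Hmga1 and Cd44). Hsd17b7 had an antioxidant element match on the opposite strand 11 bases before its start, shown in capitals because it was the largest rise.
Hsd17b7 (chr13:84722705-84723004, minus strand): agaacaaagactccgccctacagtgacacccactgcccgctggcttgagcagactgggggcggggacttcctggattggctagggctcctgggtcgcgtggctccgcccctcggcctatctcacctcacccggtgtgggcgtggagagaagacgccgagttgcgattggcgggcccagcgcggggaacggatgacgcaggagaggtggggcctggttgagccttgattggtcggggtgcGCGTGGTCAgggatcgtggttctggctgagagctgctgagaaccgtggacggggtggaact
A match describes letters in a window and does not show binding.

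Several acute phase and chemokine genes rose. Of 37 tested probes of inflammation and the acute phase, 6 rose (A2m, Hp, Vcam1, S100a9 and both Cxcl12 probes) and Stat3 fell, beside 4.23% of all tested probes in each direction. The median change of the list was -0.09. Hp, haptoglobin, read 29.9, 32.7, 40.0, 40.8 and 27.6 CPM, above every control (2.07 to 27.1 CPM, median 6.58), with a change of 1.88 ± 0.45 (adjusted p = 0.00681). Cxcl12, a chemokine of stromal cells, read 641, 666, 646, 649 and 725 CPM against 324 to 587 CPM (0.72 ± 0.17, adjusted p = 0.00585). Vcam1, an adhesion molecule, changed by 0.97 ± 0.22 (adjusted p = 0.00449). By edgeR, DESeq2 and limma voom, 0 of 9 macrophage, 0 of 6 lymphocyte and 0 of 4 mast cell markers were called, with 1, 0 and 0 at an unadjusted p below 0.05. Of 4 neutrophil markers S100a9 rose (0.78 ± 0.24, adjusted p = 0.0354).

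Mx1, an antiviral gene induced by interferon, differed widely among the exposed rats. It read 75, 136.7, 105.7, 23.5 and 33 CPM against 20.1 to 73.5 CPM, so that 3 exposed rats were above the controls and 2 within them. Mx1 (1.06 ± 0.31, adjusted p = 0.0272) and Ifit3 (1.22 ± 0.39, adjusted p = 0.0441) were the only 2 of 20 tested to pass. Ifit3 lost its call in 17 of 25 alternatives and Mx1 in 8 of 26.

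Matrix genes fell where they passed. Of 33 tested collagen and matrix genes, 5 fell (Timp1, Loxl2, Tgfb1, Col18a1 and Col5a3) and none rose, with a median of -0.25. Over all tested probes, 4.23% fell. Loxl2, a collagen crosslinking oxidase, read 16.8, 8.89, 7.22, 8.90 and 8.21 CPM against 17.3 to 28.3 CPM, below every control with rat F601 nearest (-1.17 ± 0.28, adjusted p = 0.00642). Tgfb1 changed by -0.79 ± 0.23 (adjusted p = 0.0273), and its values in 4 of the 5 rats (6.88 to 11.5 CPM) were below the controls (15.1 to 29.4 CPM) while rat F601 stood at 22.3 CPM. Its call was lost in 8 of 26 alternatives, among them the loss of control F5 or of any 1 of rats F602 to F605 (adjusted p = 0.0577 to 0.133). Fibroblast and smooth muscle markers, 5 tested of each, had no call.

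Targets of xenobiotic receptors are read here against the 8.47% of all probes called. Of 15 tested targets of the nuclear receptors CAR and PXR, 0 were called by edgeR, by DESeq2 or by limma voom, 2 had an unadjusted p below 0.05, and the median was -0.01. Their most inducible member in liver, Cyp2b1, read 0 to 0.619 CPM in the exposed ovaries and 0 to 0.525 CPM in the controls, while the joint fit gave its log2 change in liver as 8.74. Nr1i3, which encodes CAR, was at 0 in all 15 ovaries. The aryl hydrocarbon receptor target Cyp1a1 was at 0 in 14 of the 15 ovaries and was not tested. Of 6 tested targets of that receptor, edgeR called only Cyp1b1, as a rise, while DESeq2 called 2 and limma voom 1. In edgeR 4 had an unadjusted p below 0.05, against 22.2% of all tested probes, and the median change was -0.47.

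Of 29 tested NRF2 targets, 1 rose and 2 fell, with a median of -0.07. The rise was of Gsta3, a glutathione transferase (0.82 ± 0.24, adjusted p = 0.0267). Abcc4, an efflux pump, fell by 0.70 on the log2 scale (adjusted p = 0.0468), a call that was lost in 12 of 26 alternatives.

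Calls among stress and growth genes went in both directions, and their counts stand beside the 8.47% of all tested probes that were called. Gadd45g, a growth arrest gene, read 44.4, 40.6, 54, 77.7 and 59.4 CPM against 14.6 to 28.4 CPM, above every control (1.41 ± 0.22, adjusted p = 5.9e-05). Of the same 16 tested p53 and growth arrest genes, Bax, Aen and Cdkn1a fell, with Bax, a death effector (-0.37 ± 0.088, adjusted p = 0.00642), at 152.5 to 199.8 CPM in the exposed ovaries and below every control, whose median was 230.6 CPM. Among 24 tested genes of the unfolded protein response, Herpud1 (0.58 ± 0.13, adjusted p = 0.00331) and Edem1 (0.37 ± 0.10, adjusted p = 0.0203), both of endoplasmic reticulum protein degradation, rose. That share is close to the share over all probes, and the median change of the list was 0.04. Edem1 lost its call in 4 of 26 alternatives. Of 9 heat shock genes, edgeR called only Hsp90aa1, as a fall (-0.81 ± 0.19, adjusted p = 0.00668), while DESeq2 called 3 and limma voom 1. In edgeR 5 of these had an unadjusted p below 0.05, against 22.2% of all tested probes, and the median change was -0.4. Of 68 cell cycle genes, Tyms, which makes thymidylate, rose (0.39 ± 0.11) and the mitotic kinase gene Aurka fell (-1.21 ± 0.34), calls that were lost in 6 and 7 of 26 alternatives. These included the fits without rat F602, F603 or F605 for Tyms and without rat F602, F603 or F604 for Aurka. Of 16 DNA repair genes, 0 were called by edgeR, DESeq2 or limma voom, and 1 had an unadjusted p below 0.05. Dpyd, which degrades pyrimidines (1.78 ± 0.48, adjusted p = 0.0155), and Fgf1 (1.37 ± 0.37, adjusted p = 0.015) were the remaining 2 of the 10 largest rises at that minimum of 20 CPM, and both lost their call without rat F602 or F603, and Fgf1 also without rat F604. Adm, adrenomedullin, fell by 1.58 on the log2 scale (adjusted p = 0.0267) and only Adm and Eno2 passed among 24 genes of hypoxia and glycolysis. The call of Adm was lost in 7 of 26 alternatives, among them the loss of control F7 or of any 1 of rats F602 to F605 (adjusted p = 0.0541 to 0.105) and the 1,2-DCB controls (-0.72, adjusted p = 0.421).

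No probe was called at 1, 10, 50, 150 or 400 ppm by edgeR. At those concentrations 4.32%, 2.05%, 7.42%, 2.64% and 6.45% of the probes had an unadjusted p below 0.05, against 22.2% at 800 ppm. DESeq2 called 3, 1, 1, 1 and 2 probes and limma voom none. The exposed groups share their 10 controls. At 400 ppm Hsd17b7 had a log2 change of -0.49 ± 0.37 (adjusted p = 0.868), Lhcgr one of -1.01 ± 0.33 (adjusted p = 0.536), Timp1 one of 0.14 ± 0.28 (adjusted p = 0.975) and Dbp one of 0.43 ± 0.22 (adjusted p = 0.783), so for the first 3 the sign was opposite to that at 800 ppm.

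Fitted jointly, the change in ovary differed from the mean change in heart, kidney, liver and lung for 306 of 2555 probes (12% of those tested). Hsd17b7 differed by 2.90 ± 0.24 (adjusted p = 3.12e-21), and its change in the other tissues was 0.20 to 0.69. Timp1 differed by -1.90 ± 0.22 (adjusted p = 6.51e-12), Kdr by 1.03 ± 0.14 (adjusted p = 2.61e-09) and Gadd45g by 1.65 ± 0.28 (adjusted p = 1.92e-06). The tissues came from the same rats.

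The ovaries of rats given 1,2-DCB, the isomer with its chlorine atoms on neighbouring carbons, reached only 500 ppm, so the compounds were not compared at a matched concentration. In that experiment, 67 of 2300 probes were called (2.91%). Side by side, at 800 ppm of 1,4-DCB and 500 ppm of 1,2-DCB, the log2 change of Hsd17b7 was 3.29 and 1.21 (adjusted p = 0.304 for the latter), that of Lhcgr 1.82 and 0.13, that of A2m 2.29 and 0.10, and that of Timp1 -1.84 and -0.70. Dbp (1.15 ± 0.29, adjusted p = 0.0194), Gadd45g (1.18 ± 0.28, adjusted p = 0.0167) and Apoa1 (-2.79 ± 0.69, adjusted p = 0.0194) were called in the 1,2-DCB ovaries too. Mx1 was called there with the opposite sign (-1.48 ± 0.41, adjusted p = 0.0406).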

How the data were processed

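The labels' protocols describe RNA isolated from tissue kept in RNAlater and run on the TempO-Seq Rat S1500+ v1.2 panel. The deposited table holds read counts per probe that the authors had adjusted for attenuation, in which counts of 104 probes are multiples of a step of 3 to 10. The submitters' processing notes name Bowtie 1.3.1, and no source used here states the probe reference. Probes were kept with edgeR's filterByExpr, counts scaled by TMM, and all 40 ovary libraries of 1,4-DCB fitted with 1 coefficient per concentration (edgeR 4.0.16, R 4.3.3, quasi-likelihood test, Benjamini-Hochberg adjustment, called below 0.05). CPM are normalized to TMM library sizes. A joint fit of 192 libraries gave the tissue differences. Rat numbers are shared across tissues because 1 rat gave all 5, and deviations of its ovary and other tissues correlated at a median of 0.0755 (-0.071 to 0.197). DESeq2 1.42.0, limma voom 3.58.1, other filters and scalings, cycle scores as covariates and each library left out were the alternatives. The fit was tested on simulated data.

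The members and gene lists were chosen with earlier results of these data known. Named genes are the 10 largest rises and falls at 20 CPM or more, up to 4 called members of each list, and a set of ovarian genes given whatever their result. The promoter motifs of the clock genes were added after the values were seen. Each ovary library came from a different rat, so p-values of the ovary fits measure the spread between rats. The joint fit of tissues had no term for the rat, so its p-values treat libraries of 1 rat as independent. Of 2603 symbols, 2396 were current in RefSeq and 93 older. Of the lists not described in the text, 0 of 8 glucocorticoid and metallothionein genes, 1 of 23 apoptosis genes in each direction, 1 of 25 complement and coagulation genes in each direction, and 1 rise (Gsta3) in 20 glutathione and conjugation genes were called. No marker of surface epithelium, red cells or adipocytes was called, and of 7 hepatocyte markers Tf rose and Apoa1 fell. Some genes are not reported here.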

Additional observations from a re-analysis of the deposited data

Results flagged for a closer look

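In 9 of 120 tests, the level of a named gene within 1 group had a highest or lowest animal that stood apart from the rest by Dixon's criterion, which chance alone meets in about 1 in 20 groups. Rat F601 accounted for 5 of them among the 800 ppm ovaries: it had the lowest Vnn1 (425 CPM) and the highest Apoa1 (676 CPM), Hbegf (12 CPM), Timp1 (716 CPM) and Loxl2 (16.8 CPM). In each of these genes its level lay nearest to the controls. Rat F602 had the lowest Fosl1 (2.92 CPM), and rat F604 the lowest Vcam1 (16.3 CPM) and Prlr (798 CPM). Among the controls, rat F4 had the lowest Inha (203.5 CPM).

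In edgeR's joint fit, 23 named genes averaged at least 5 CPM in every tissue. For 16 of them the change in ovary differed from the mean change of heart, kidney, liver and lung. The difference, ovary minus the mean of the 4, was positive for Hsd17b7 (2.90), Vnn1 (1.86), Gadd45g (1.65), Arntl (1.46), Gpd1 (1.40), Kdr (1.03), Cxcl12 (0.95), Elovl5 (0.78), Sdhb (0.73), Nsdhl (0.59), Edem1 (0.51), Birc2 (0.38) and Tyms (0.36). It was negative for Apoa1 (-1.60), Dbp (-0.87) and Bax (-0.29). Of all probes in the joint fit at that level, 22.5% differed between ovary and the other tissues. Most named genes were chosen because they were called in the ovary. A higher share among them was therefore favoured by the choice and is not a separate result.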

How the results depend on the processing

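The share of probes called at 800 ppm was 8.47% in the reported fit and 8.55% with DESeq2 size factors. The number called was 251 by DESeq2, 210 by limma voom, 182 at a mean of 20 CPM, 188 without a filter, 208 with counts divided by their step, 158 with only the exposed ovaries and controls, 226 with both compounds in the fit and 195 against the 1,2-DCB controls. It was 85 with the cycle scores as covariates and 84 without controls F5, F7 and F8, an alternative chosen after seeing the data. Leaving out 1 library gave 89 to 267. Of 52 named genes called, 11 kept the call in every alternative (Hsd17b7, Vnn1, A2m, Dbp, Gadd45g, Tnfrsf12a, Timp1, Cxcl12, Loxl2, Arntl and Npas2); 28 kept it without rat F602, 35 without F603, 36 without F604, 40 without F605 and 50 without F601. The fit with the cycle scores is among these alternatives and cannot test members of the scores, such as Hsd17b7, A2m and Timp1. At 1, 10, 50, 150 and 400 ppm DESeq2 called 3, 1, 1, 1 and 2 probes, and at 400 ppm leaving out 1 library gave 0 to 2.

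Signs turned as follows, and the cause was not tested. With the covariates Rgs2 was 0.18, Hmga1 0.32, Cyp11a1 -0.46, Pgr 1.48, Ptgs2 0.53 and Cyp2b1 -0.51. Among these, Cyp11a1 is a member of the luteal score, and Rgs2, Pgr and Ptgs2 are members of the periovulatory score. Against the 1,2-DCB controls Prlr was 0.10, Inha -0.02, Inhba -0.03 and Cyp2b1 -0.20. Cyp2b1, near 0 CPM, was also -1.04 by limma voom, -0.04 without controls F5, F7 and F8, and -0.74 to -0.01 without exposed rat F601 or F603 or control F7, F8 or F9. Leaving out 1 library, Prlr ran from -0.09 to 0.03, above 0 without exposed rat F604, Pgr from -1.48 to 0.26, above 0 without control F9, and Cyp2b1 from -0.74 to 0.43.

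The groups at 0 and 800 ppm share no rat numbers, so the replicate block applies to the tissue difference alone: with the rat as a replicate block 338 probes were called against 306. That count was 312 with DESeq2 size factors, 275 at 20 CPM, 409 by limma voom and 237 to 322 without 1 exposed rat.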
